A study of Arabidopsis thaliana with 12 samples.

Results

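CML38 (AT1G76650), CML37 (AT5G42380) and CML23 (AT1G66400) are calmodulin-like genes of Arabidopsis, and their transcripts were followed in rosette leaves 5 min after mechanical wounding. They were chosen by name, with earlier results of these data known. The platform annotation assigns 1 spot to each, so that 3 of the 22575 spots on each array are described here. All of them are among the 20072 genes and unnamed spots that could be tested. The wounded leaves came from soil-grown plants of ecotype Col (Columbia) whose rosette leaves had been wounded with a hemostat, and the leaves that were not wounded came from untreated plants of the same ecotype. Each of 3 biological replicates was a pair of pools of plants. By the array titles, each pair was hybridised to 4 two-colour arrays. On 6 of the 12 arrays the wounded sample was in Cy5 (the Cy5 orientation), on the other 6 in Cy3 (the Cy3 orientation). A pool holds all cell types of the leaf, so a rise in more cells and a larger rise per cell cannot be told apart.

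Calmodulin and the calmodulin-like proteins bind calcium through EF-hand motifs and change shape when the ion is bound, which lets them act on other proteins. Because wounding, touch, cold and microbial elicitors all raise calcium in the cytosol within moments, these proteins are regarded as sensors that pass a calcium signal on, and several of their genes are themselves transcribed more after such stimuli. CML37 and CML38 belong to one subgroup of the family. CML37 is known as a positive regulator of jasmonate-dependent defence against chewing insects, and CML38 as a gene of the core response to low oxygen. CML23 is a close relative of the touch gene TCH2 (CML24) and has been linked with it to nitric oxide levels and flowering time. The locus next to CML38 is annotated as CML39 and the one next to CML23 is the calmodulin gene CAM4. Neither these neighbours nor TCH2 has a named spot, and they are not analysed here.

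The measurement on each array is the log2 ratio of the wounded over the not wounded signal, and the 4 arrays of each pair of pools were averaged to 1 value. The mean of the 3 replicates was tested against 0 with limma, with Benjamini-Hochberg adjustment over all 20072 tested features, and called at an adjusted p under 0.05. Spots whose deposited ratio was set to exactly 0 are dim, and the level below which 95% of their signals lay, between 81 and 124 depending on the array, is called the dim limit. Many spots answer to the dye as well as to the sample: a difference between the orientations was called for 63.4% of all features. That count came from a fit of the 12 arrays singly, which counts technical repeats as samples. Of the leaf markers LHCB4.1, RCA and PORB, which are the 3 of 20 listed genes with a named spot, all were above the dim limit in both channels of 12 of 12 arrays, LHCB4.1 (a light-harvesting protein of photosystem II) with 151000 to 402000 in the wounded and 160000 to 632000 in the not wounded channel. The root markers PYK10 and EXPA7, 2 of 8 listed, lay between 140 and 699 in the wounded channel and between 73.8 and 916 in the not wounded channel. These signals too were mostly above the dim limit. PYK10 passed it on 12 arrays in the wounded and 11 in the not wounded channel, and EXPA7 on 12 in both. The log2 ratio stood at -0.45 for RCA (Rubisco activase; limma adjusted p = 0.041) and at 1.21 for PORB (a chlorophyll synthesis enzyme; limma adjusted p = 0.015), and the part of these changes in the results was not tested.

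CML38 showed the largest response of the 3 genes. Its signal in the wounded channel was 3030 at the lowest, 3665 at the median and 6720 at the highest over the 12 arrays, against 385, 558 and 734 in the not wounded channel. The groups did not overlap, either within a replicate or over all arrays. Such a separation over all 12 arrays, with every wounded signal above every not wounded signal, was found for 0.533% of all features. As a ratio, CML38 was higher in the wounded sample by 2.96, 3.02 and 2.64 on the log2 scale in replicates 1, 2 and 3, with a mean of 2.87 ± 0.21 (SD, n = 3 pairs of pools; limma adjusted p = 0.0029). This is a fold change of 7.33, between 6.23 in replicate 3 and 8.12 in replicate 2. It was the third largest mean log2 ratio among the 8734 named genes tested. CML38 stayed below the adjusted threshold under each of the 15 alternatives run, with mean log2 ratios between 2.79 and 2.99.

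CML37 was also higher in the wounded leaves, but by an amount that differed more between the replicates. In the wounded channel its signal was 723 at the lowest, 1290 at the median and 1460 at the highest, and in the not wounded channel 458, 588 and 753. Over all arrays the groups therefore overlapped, since 1 wounded signal of replicate 3 lay below the highest not wounded signal, which was in replicate 2. Within each replicate they did not overlap, and the closest approach was in replicate 3, with 723 in the wounded against 655 in the not wounded channel. Separation within each of the 3 replicates was found for 3.18% of all features. The log2 ratio of CML37 was 1.44, 0.89 and 0.59 in replicates 1, 2 and 3, with a mean of 0.97 ± 0.43 (SD, n = 3; limma adjusted p = 0.031) and a fold change of 1.96.

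CML23 was the brightest spot of the 3 in the not wounded channel, although signals of different probes cannot be compared as transcript levels. Its wounded signal was 2430 at the lowest, 3550 at the median and 5630 at the highest, against 1440, 1755 and 2360 in the not wounded channel. The groups did not overlap over the 12 arrays, but the lowest wounded signal (replicate 3) and the highest not wounded signal (replicate 2) lay close together. Per replicate the log2 ratio of CML23 was 1.30, 0.97 and 0.78, with a mean of 1.02 ± 0.27 (SD, n = 3; limma adjusted p = 0.016) and a fold change of 2.02. All 3 genes were thus called higher, where 7.25% of all features were. CML38 and CML23 were at least 2-fold higher as well, where 0.633% were. CML23 passed 2-fold only narrowly and not in replicates 2 and 3, and CML37 fell just short of it at 1.96. The genes were chosen with earlier results known, so these shares describe them and do not test them. The calls of CML37 and CML23 were lost without replicate 2 (limma adjusted p = 0.095 and 0.057, with mean log2 ratios of 1.02 and 1.04). They were also lost without 1 array of replicate 3 (adjusted p = 0.086 and 0.054). On that array the wounded pool bears another number in the channel label than in the title. With the channels fitted as unpaired groups both calls were lost too (0.36 for each). Over all features calls also fell, from 14.5% to 0.947% without replicate 2, 1.27% without that array and 0.135% unpaired.

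**Figure D1:**
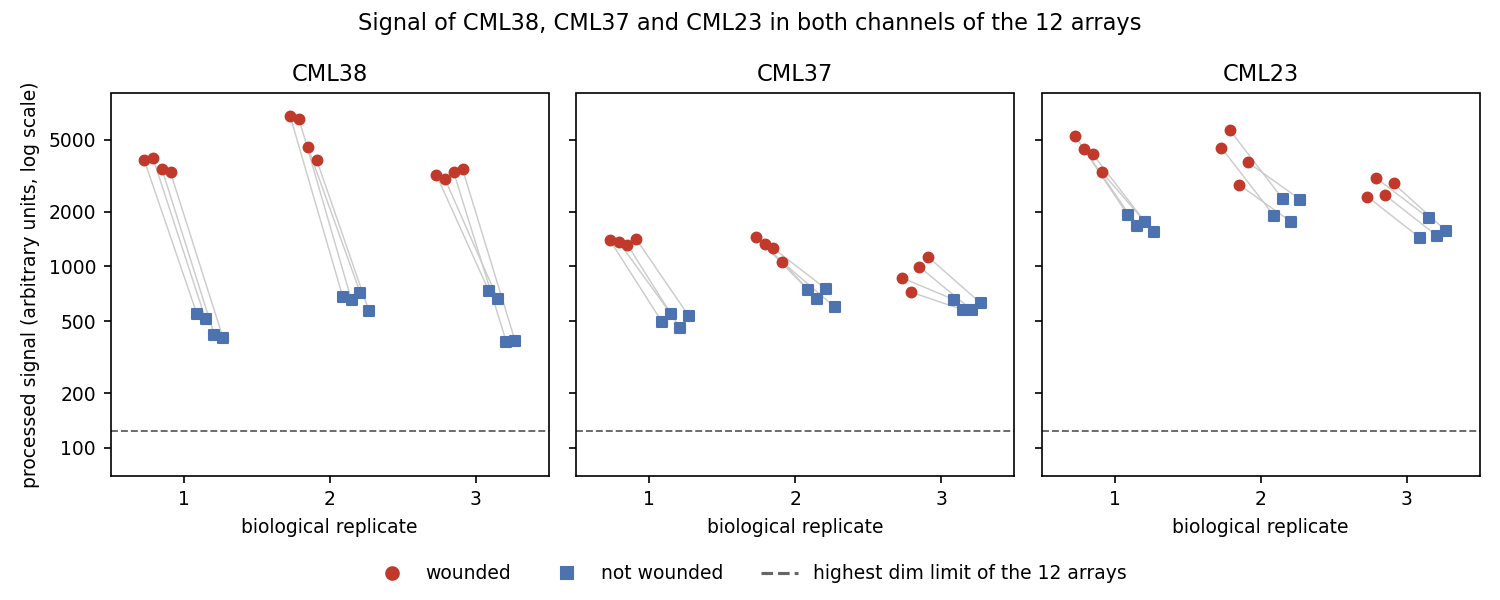
Processed signal of CML38, CML37 and CML23 on a log scale (arbitrary units) for the 3 biological replicates. Red circles are the wounded and blue squares the not wounded channel, a grey line joins both channels of 1 array, and the dashed line is the highest dim limit, 124. Every line falls from wounded to not wounded, most steeply for CML38, and no point lies near the dim limit.

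The baseline signal of all 3 genes was well above what dim spots gave, so that none of the ratios rests on a denominator at the background. In the not wounded channel, CML38 lay between 3.57 and 7.47 times the dim limit of its array, CML37 between 4.27 and 7.88 times, and CML23 between 12.2 and 23.4 times. No array had either channel of any of the genes below the limit. Averaged within a replicate as geometric means, the not wounded signal of CML38 was 467, 650 and 520 in replicates 1, 2 and 3, that of CML37 was 506, 686 and 608, and that of CML23 was 1717, 2076 and 1575. Replicate 2 thus had the highest baseline for each gene.

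The wounded signal followed another order over the replicates than the baseline did. For CML38 it was 3637, 5280 and 3242 in replicates 1, 2 and 3, so that replicate 2 was highest in both channels and its ratio was little different from that of replicate 1. For CML37 it was 1377, 1269 and 916, and for CML23 it was 4238, 4059 and 2702. In both of these genes the wounded signal was lowest in replicate 3 and highest in replicate 1, as was the ratio. The SD of the log2 signal over the 3 replicates was 0.37 in the wounded and 0.24 in the not wounded channel for CML38, 0.31 and 0.22 for CML37, and 0.36 and 0.20 for CML23. Once each channel was scaled to its own median, the SDs were 0.31 and 0.27 for CML38 and 0.22 and 0.16 for CML23, while for CML37 the order turned, with 0.17 in the wounded and 0.29 in the not wounded channel. Signals were not normalized between arrays by the authors, so the ratio within an array is the better measure of the change.

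**Figure D2:**
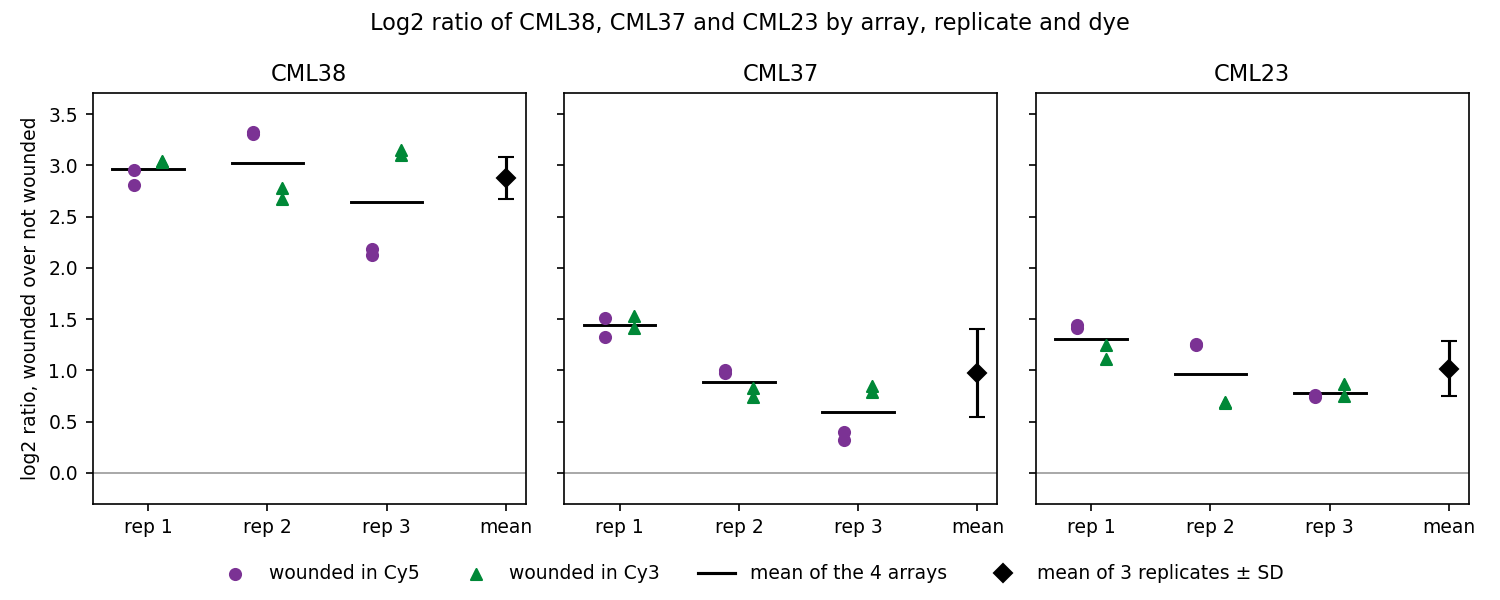
Log2 ratio of wounded over not wounded on each array, by biological replicate. Purple circles are arrays with the wounded sample in Cy5, green triangles those with it in Cy3, black bars the mean of the 4 arrays of a replicate, and diamonds the mean of 3 replicates ± SD. All 36 ratios are above 0, and arrays of one replicate and orientation lie close together.

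The wounded signal was the higher one on all 12 arrays for each of the 3 genes, whichever dye the sample carried. Across all features 7.47% were higher on 12 of 12 arrays. The array ratios of CML38 spanned 2.13 to 3.33 on the log2 scale, those of CML37 0.33 to 1.53, and those of CML23 0.69 to 1.44. The CML38 range thus did not meet the ranges of the other genes. Arrays of the same replicate and orientation, which are technical repeats by their titles, differed by at most 0.14 for CML38, 0.18 for CML37 and 0.14 for CML23.

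Turning the dyes round moved most of the ratios by more than a technical repeat did, and not in one direction. The exceptions were CML37 in replicate 1 and CML23 in replicate 3, where the dye difference was within the gap between technical repeats. As the Cy5 minus the Cy3 orientation, CML38 differed by -0.16, 0.59 and -0.96 in replicates 1, 2 and 3. In replicate 3 this lay in the not wounded channel, which read 734 and 665 in Cy3 but 385 and 389 in Cy5, while the wounded signals were 3210 and 3030 in Cy5 and 3300 and 3440 in Cy3. In replicate 2 it lay in the wounded channel, with 6720 and 6520 in Cy5 against 4560 and 3890 in Cy3. CML37 had dye differences of -0.05, 0.21 and -0.46, and CML23 of 0.24, 0.56 and -0.07. Averaged over the replicates, the dye difference was -0.18 ± 0.20 for CML38, -0.10 ± 0.18 for CML37 and 0.25 ± 0.13 for CML23 (SE from limma over the 12 arrays with the biological replicate as a random effect; adjusted p = 0.47, 0.66 and 0.12). That fit takes the dye difference as the same in every replicate and counts technical repeats as samples, so its errors carry the changes of sign seen for CML38 only in part. In the Cy5 orientation alone, CML38, CML37 and CML23 had mean log2 ratios of 2.79, 0.92 and 1.14, in the Cy3 orientation alone 2.96, 1.02 and 0.89, and each gene was called in both. The mean ratio had opposite signs in the 2 orientations for 60.9% of all features, but for 0 of these 3 genes. As all 36 array ratios of these genes were above 0, this could not have come out otherwise and adds nothing to them.

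The genes also differed in the spread over the biological replicates. CML37 had the highest SD of the log2 ratio, 0.43, which is above that of 96.3% of all tested features. CML23 had an SD of 0.27, above 86.8% of features, and CML38 one of 0.21, above 76.7%. The median SD over all features was 0.12, and over the features called higher it was 0.10. Relative to the mean log2 ratio, the SD was 0.071 for CML38, 0.26 for CML23 and 0.44 for CML37. On these means over both dyes, the gene with the strongest response had the smallest spread of the 3, on both scales. The order depended on the orientation. In Cy5 alone, CML38 had 2.88, 3.32 and 2.16 in replicates 1, 2 and 3, the widest range. There CML37 had 1.42, 0.99 and 0.36, and CML23 1.43, 1.25 and 0.75. In Cy3 alone, CML38 had 3.04, 2.73 and 3.12, the narrowest range. There CML37 had 1.47, 0.78 and 0.82, and CML23 1.18, 0.69 and 0.81.

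**Figure D3:**
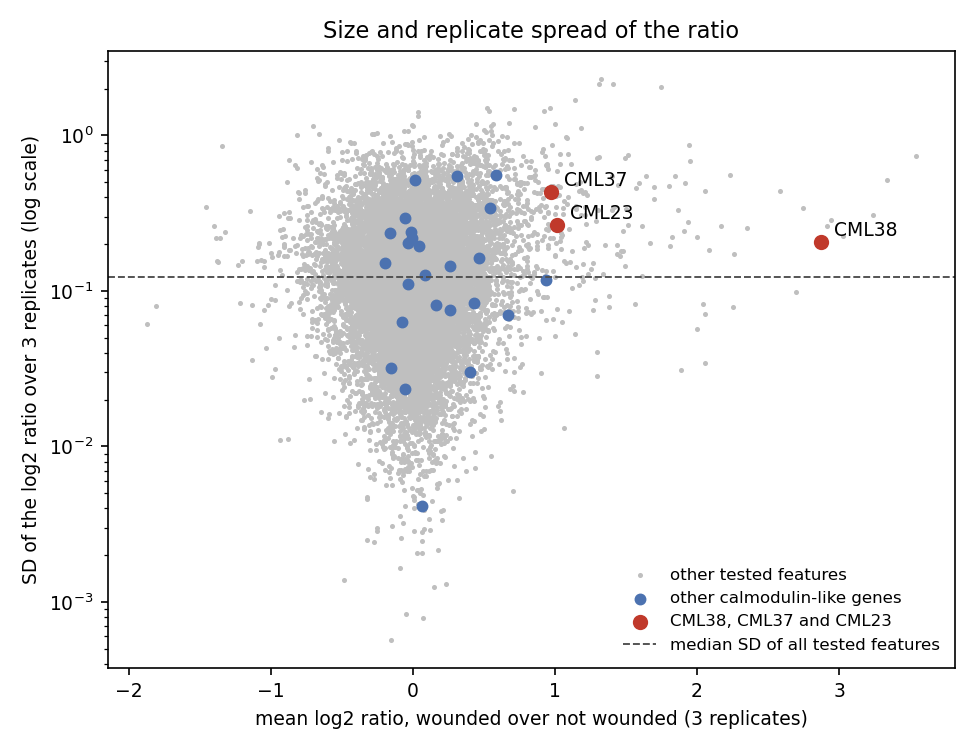
SD of the log2 ratio over 3 biological replicates (log scale) against the mean log2 ratio of wounded over not wounded. Red points are CML38, CML37 and CML23, blue points the other calmodulin-like genes, grey points all other tested features, and the dashed line is the median SD of all features, 0.12. The red points lie to the right and above this line, with CML38 farthest to the right and lowest of the 3.

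Between the genes, the ratio of CML38 exceeded that of CML37 by 1.52, 2.14 and 2.05 on the log2 scale in replicates 1, 2 and 3, with a mean of 1.90 ± 0.33 (SD, n = 3). It exceeded that of CML23 by 1.66, 2.05 and 1.86, with a mean of 1.86 ± 0.20 (SD, n = 3). Both differences had the same sign on 12 of 12 arrays, and the smallest on any array were 1.30 and 1.37. CML37 and CML23, in contrast, differed by 0.14, -0.08 and -0.19 (CML37 minus CML23), with a mean of -0.04 ± 0.17 (SD, n = 3), and CML37 had the higher ratio on 6 of 12 arrays. On single arrays this last difference lay between -0.41 and 0.30, and its mean was smaller than its spread, which does not show that both genes responded alike. With 3 replicates an exact two-sided sign-flip permutation test cannot go below p = 0.25, which it gave for both differences of CML38 (adjusted p = 0.38 over the 3 pairs compared), and it gave p = 0.75 for CML37 against CML23 (adjusted p = 0.75).

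The named genes most like each of the 3 were sought by the root mean square difference of the log2 ratio over the 12 arrays, which share the dye effects of those arrays. Closest to CML38 was STZ, a C2H2 zinc finger protein that represses transcription, at 0.25. The STZ ratios were 3.22, 2.94 and 2.66 in the 3 replicates. AT5G17350 followed at 0.41 and AT3G04640 at 0.84. CML37 and CML23 had closer neighbours, but the distance depends on the size of the ratio as well as on its pattern. By mean log2 ratio CML38 ranked 3 among the named genes, CML23 61 and CML37 69. The greater distances of CML38 therefore do not show a pattern of its own. For CML37 the nearest were AT5G12940 at 0.20, AT1G09750 at 0.21 and AT2G24600 at 0.22, though AT2G24600 was not called (limma adjusted p = 0.070). Their ratios were highest in replicate 1 (1.32, 1.39 and 1.44), as that of CML37 was. Genes picked for a small distance over these arrays tend to share its replicate order, so this is no separate observation. For CML23 the nearest were AT2G29670 at 0.14, AT2G42040 at 0.16 and Fes1B, a homolog of a yeast exchange factor of the Hsp70 chaperone, at 0.19. CML37 and CML23 were 0.23 apart, which made CML23 the sixth nearest of 8733 named genes to CML37 and CML37 the ninth nearest to CML23. CML38 lay 1.93 from CML37 and 1.89 from CML23.

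Within their family the 3 genes, chosen with earlier results known, had the largest mean ratios in the fit of all 3 replicates. The order below CML38 depended on the arrays used, since AT3G10300 was above CML37 and CML23 without replicate 1 (1.00 against 0.74 and 0.87) and in the Cy3 orientation alone (1.1 against 1.02 and 0.89). Of 57 calmodulin and calmodulin-like genes listed by locus, 28 had a named spot and were tested, all of them calmodulin-like. Of these 28, 8 were called higher, 0 lower and 20 did not pass, and at an unadjusted p under 0.05 there were 12 higher and 1 lower, beside 16.6% and 16.4% of all features. Without CML38, CML37 and CML23, 5 of the other 25 were higher, which is 20% beside 7.25% of all features, and 0 were lower beside 7.24%. The median log2 ratio of these 25 was 0.07, against 0.00 over all tested features. In either direction, 14.5% of all features were called. The number called among the 28 was 2 without replicate 2, 5 without replicate 3 and 14 without replicate 1 (12 higher and 2 lower), beside 0.947%, 2.76% and 15.8% of all features. It was 2 without the array of the differing label, beside 1.27%, and 1, CML38, with the channels unpaired, beside 0.135%. With the 12 arrays fitted singly and the replicate as a block it was 14, beside 30.6%.

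**Figure D4:**
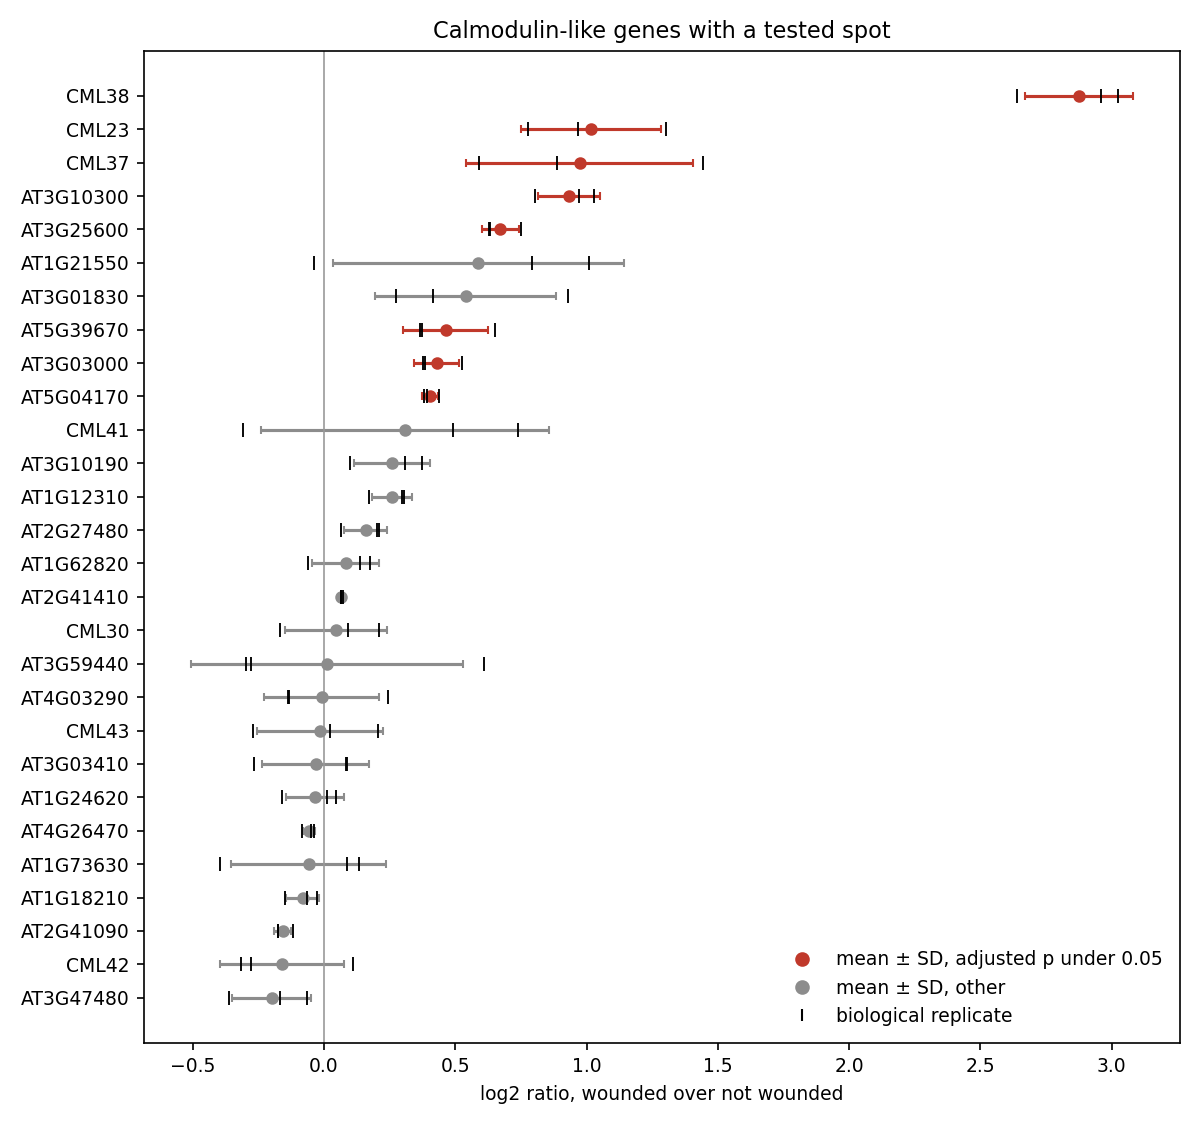
Log2 ratio of wounded over not wounded for the 28 calmodulin-like genes with a tested spot, in the order of their means. Points are means of 3 biological replicates with their SD, red where the adjusted p is under 0.05 and grey otherwise, and ticks are the single replicates. CML38 stands apart at 2.87, CML23 and CML37 follow near 1, and 20 genes are grey.

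The other 5 genes that rose are given by locus, since the gene table used here gives them no CML name. AT3G10300 stood at 0.93 ± 0.12 in log2 ratio (SD, n = 3; limma adjusted p = 0.011), close to that of CML37 but with a smaller spread, and it was still called when any 1 replicate was left out, though not with the channels unpaired (adjusted p = 0.63). AT3G25600 had 0.67 ± 0.07 (SD, n = 3; adjusted p = 0.014), and its call was lost without replicate 2 (adjusted p = 0.061), without the array of the differing label (0.053) and with the channels unpaired (0.95). AT5G39670, AT3G03000 and AT5G04170 had smaller ratios of 0.46, 0.43 and 0.41 (adjusted p = 0.032, 0.023 and 0.021), and none of the 3 passed without replicate 2 (0.12, 0.12 and 0.13) or without replicate 3 (0.082, 0.086 and 0.095). Nor did they pass without the array of the differing label (0.075, 0.082 and 0.067), in the Cy3 orientation alone (0.080, 0.073 and 0.058) or with the channels unpaired (1.00 each), and AT3G03000 did not pass in the Cy5 orientation alone either (0.072). All 5 were higher in 3 of 3 replicates, as 28.5% of all features were, and on 12 of 12 arrays. A call on these same replicates favours such agreement, so it gives the 5 genes no further support. The not wounded signal of each was above the dim limit on every array.

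Of the genes that did not pass, those with the smallest p were AT1G12310, AT3G01830, AT3G10190 and AT2G41090. Their log2 ratios were 0.26, 0.54, 0.26 and -0.16, with limma adjusted p values of 0.058, 0.071, 0.091 and 0.13. AT3G01830 had ratios of 0.93, 0.42 and 0.28 in replicates 1, 2 and 3. Its mean was 0.99 in the Cy5 and 0.09 in the Cy3 orientation. The other genes of the family that carry a CML name, CML30, CML41, CML42 and CML43, had ratios of 0.05, 0.31, -0.16 and -0.01 (adjusted p = 0.77, 0.38, 0.35 and 0.94). The lowest ratio of any family member was -0.20, for AT3G47480 (adjusted p = 0.16). The calcium-dependent kinases, the calcineurin B-like proteins and the kinases these bind decode calcium beside the calmodulin-like proteins, but none of the 70 listed genes has a named spot, and they are not analysed here.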

How the data were processed

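Arrays were Agilent oligonucleotide arrays with 22575 spots. The authors scanned them and used Agilent Feature Extraction 8.1, and the deposited values are processed intensities of both dyes, background-subtracted and scaled between dyes on housekeeping genes. The authors also deposited log10 ratios (Cy5 over Cy3). This table followed the intensities closely (lowest Pearson r of any array 0.9993), holds 0 at 1129 to 2714 dim spots per array, has a median of 0 in each column and is limited to 2 in size. It served as a filter and as an alternative. Flags, slide and scan were not used here, so control spots stayed in.

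The dye of each sample came from the channel labels. All 4 arrays of a replicate carry the same pair of pools, so they were averaged, and spots of a gene were averaged too. Features were left out if both arrays of any of the 6 dye-swap pairs held a ratio of 0. The 3 replicate means were fitted by lmFit and eBayes of limma 3.58.1 (R 4.3.3), with Benjamini-Hochberg adjustment. The study's p came from Rosetta Resolver, which was not used here. Simulated data with known changes were used to test the script. The p-values rest on the spread among 3 pairs of pools, and this number limits the precision. By eBayes the spread of each feature is drawn towards that of all tested features (2.71 prior degrees of freedom). The spread used was thus smaller than the gene's own for CML38, CML37 and CML23, whose SDs were 0.21, 0.43 and 0.27. Their limma SEs were 0.094, 0.17 and 0.11. These are errors of the mean of 3 replicates and are not on the scale of the SD.

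Names came from the platform annotation, updated through Entrez identifiers with the TAIR10.1 gene table, which matched 9317 of 9335 spots with 1 gene. Another 40 spots had several genes and 13200 had none, and these were left unnamed. The calmodulin and calmodulin-like list was compiled by locus from general knowledge of the family. Named are CML38, CML37 and CML23, the called genes of that list and its next 4 by p, and the 3 genes nearest to each of the 3. Other genes were named after their values were seen. A part of the rule on protein similarity could not be applied. The genes and lists were chosen with earlier results of these data known. As alternatives, arrays were centred on the median or by loess, the log10 table replaced the intensities, and filters, the unit of replication, the orientation, the variance model and the pairing of channels were changed or arrays and replicates left out.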

Additional observations from a re-analysis of the deposited data

How the results depend on the processing

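CML38 kept its direction and its call in all 15 alternatives, with limma adjusted p values of 2.8e-08 to 0.041, and CML37 and CML23 kept their direction in all and their call in 12 each. With the channels unpaired, CML37 (0.97) and CML23 (1.02) were not called, and of the family 1 gene was. Without the array of the differing label, where replicate 3 no longer holds both orientations equally, CML37 had 0.95, CML23 1.01, and 2 family genes were called. With 1 replicate left out, the log2 ratio was 2.80 to 2.99 for CML38, 0.74 to 1.17 for CML37 and 0.87 to 1.14 for CML23, and 2 to 14 family genes were called. With the 12 arrays fitted singly and the replicate block as a random effect, 14 family genes were called (12 higher, 2 lower), beside 30.6% of all features. That fit counts technical repeats as samples. The dye differences did not pass under the other normalizations or the deposited log ratios either. Over all features, 1455 were higher and 1454 lower, but 3095 and 3046 with the replicate block, 27 and 0 unpaired, 2837 and 3145 in the Cy5 orientation alone, 3847 and 3234 in the Cy3 orientation alone, 173 and 82 without the array of the differing label, 139 and 51 without replicate 2, and 334 and 220 without replicate 3. The causes were not tested. No other alternative moved the totals by over 1.5 times. The list of calcium-decoding kinases had no named spot, so its alternatives were not run.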

Other observations

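Some calmodulin-like genes that were not called differed between the biological replicates in another way than CML37 and CML23, and they are named here after their values were seen. CML41 had log2 ratios of -0.31, 0.74 and 0.49 in replicates 1, 2 and 3, and AT1G21550 had -0.04, 1.01 and 0.79, so that both were at or below 0 in replicate 1, where CML37 and CML23 were highest. AT3G59440 had 0.61, -0.28 and -0.30, with replicate 1 alone above 0. Their SDs of 0.55, 0.55 and 0.52 were above that of CML37, and none passed (adjusted p = 0.38, 0.14 and 0.97, limma).

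The mean ratio had opposite signs in the Cy5 and Cy3 orientations for 11 of the 28 family members, of which 0 were called, and for 60.9% of all features. The widest differences between the orientations in the family were those of AT4G26470 and AT4G03290. AT4G26470 had a mean log2 ratio of -0.75 in the Cy5 and 0.64 in the Cy3 orientation, and AT4G03290 had -0.76 and 0.74. AT4G03290 was dim, with a wounded signal under the dim limit on 5 arrays and a not wounded signal under it on 6, while AT4G26470 was above it throughout.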
